A study of Mus musculus with 6 samples.

Results

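The Cyp4 genes encode cytochrome P450 enzymes that hydroxylate the last carbon of fatty acids and of lipid mediators such as arachidonic acid. They were followed here in mouse liver under a soy-enriched diet. The set holds 10 genes: Cyp4a10, Cyp4a14, Cyp4a31, Cyp4a32, Cyp4a12a and Cyp4a12b of the Cyp4a subfamily, Cyp4f13, Cyp4f14 and Cyp4f15 of the Cyp4f subfamily, and Cyp4v3. Their members on the array were found through the RefSeq accession of each non-control probe, and all probes of a gene were kept. Of the 10 genes, 9 were matched by 12 of the 56605 probes tested, and no probe was matched to Cyp4a32. Cyp4a10 had 3 probes, Cyp4a31 had 2, and the other genes had 1 each.

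The livers came from male mice in 2 groups of 3, described as 12 weeks old when put on the diets and killed after 4 weeks of feeding. The control group ate regular chow throughout, and the soy group ate for 4 weeks a mixture of 75% regular chow and 25% soy bean powder. By the authors' account the soy chow held more lipid, polyunsaturated fat and protein, and less available carbohydrate. The diets thus differed in these as well, and the part of each was not tested. The strain is not given in the sources used here, and the tissue was a piece of 1 liver lobe with all its cell types. RNA of each mouse was hybridized to 1 Agilent 1-colour array, so that the 3 arrays of a group are 3 mice, and that number limits the precision of every value. Slide 1 of the 3 slides carried the first 2 controls together with soy 1, slide 2 carried soy 2 alone, and the last mouse of each group shared slide 3. Fewer spots stood well above background under soy (31308, 31988 and 32498) than in control (37010, 36366 and 38163), and the part of this difference in the results below was not tested. Values are log2 of the normalized signal, and a change is the soy mean minus the control mean. A probe passed when limma gave an adjusted p under 0.05 over all probes and a fold change above 1.5 or under 0.66.

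Omega-hydroxylation is the minor route of fatty acid breakdown in liver, and its products are oxidized to dicarboxylic acids that peroxisomes shorten. Cyp4a10, Cyp4a14 and Cyp4a31 are classic target genes of PPARA, the nuclear receptor that fatty acids and fibrates activate. The authors of the study describe Cyp4a14 as a female-predominant enzyme. Cyp4a12a and Cyp4a12b are known as the male-typical members in mice and make the signalling lipid 20-HETE, while the Cyp4f enzymes are known for inactivating leukotrienes.

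Cyp4a14 (NM_007822) was the member that passed. Its log2 signal was 6.93, 6.72 and 7.27 in the controls and 9.78, 10.22 and 10.74 under soy. Each soy mouse was thus above each control mouse, with a gap between the groups that was wider than the range inside either. The mean rose from 6.97 ± 0.28 to 10.25 ± 0.48 (SD, n = 3 each), which is a change of 3.28 (SE 0.25, 95% interval 2.70 to 3.85) and 9.69-fold (limma, adjusted p = 0.00775). The probe was well above background on 2 of the 3 control arrays, all but control 2, and on the 3 soy arrays. The size of the fold depended on how the weak control signals were treated: it was 13.0-fold with an offset of 16 in place of 50 and 24.2-fold with Agilent's processed signal, both past the thresholds. Within slide 1 the change was 2.96, within slide 3 it was 3.48, and with the slide as a block it was 3.18 (limma, adjusted p = 0.0263). In a piece of whole liver, fewer cells of a type and less RNA per cell cannot be told apart. Of 9 hepatocyte markers 7 were lower in soy and 2 higher, with a median change of -0.14 (-0.04 without soy 3), and none passed (limma).

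Counted over the set, 1 of 12 probes and 1 of 9 genes passed. Over the whole array, 0.350% of probes passed, with 118 higher and 80 lower in soy, and 0.533% of 22907 genes did (0.341% as higher in soy). With Agilent's processed signal that split was 11924 higher and 1214 lower. By the brightest probe of each gene, 4 of the 9 genes had no overlap between the groups, against 20.5% of all genes, and 3 of the 9 had no overlap and were higher in soy, against 9.68% of all genes. The median change over the 9 genes was 0.09, beside -0.01 over all genes. It rested on single arrays, at 0.34 without control 1, 0.24 without soy 2, -0.04 without control 2 and -0.02 without soy 3, and it was 0.21 with the slide as a block. At an unadjusted p under 0.05 by limma, which is used below where no or few genes of a list passed, 1652 of the 22907 genes were higher in soy (7.21%) and 1609 lower (7.02%) by their brightest probe. When 1 array was left out, the change of 113 of the 122 genes of the Cyp4 set and the lists below that had a larger unadjusted p moved by over 1.5 times or turned its sign (48 turned), and so did that of 10 of the 67 others (0 turned).

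**Figure D1:**
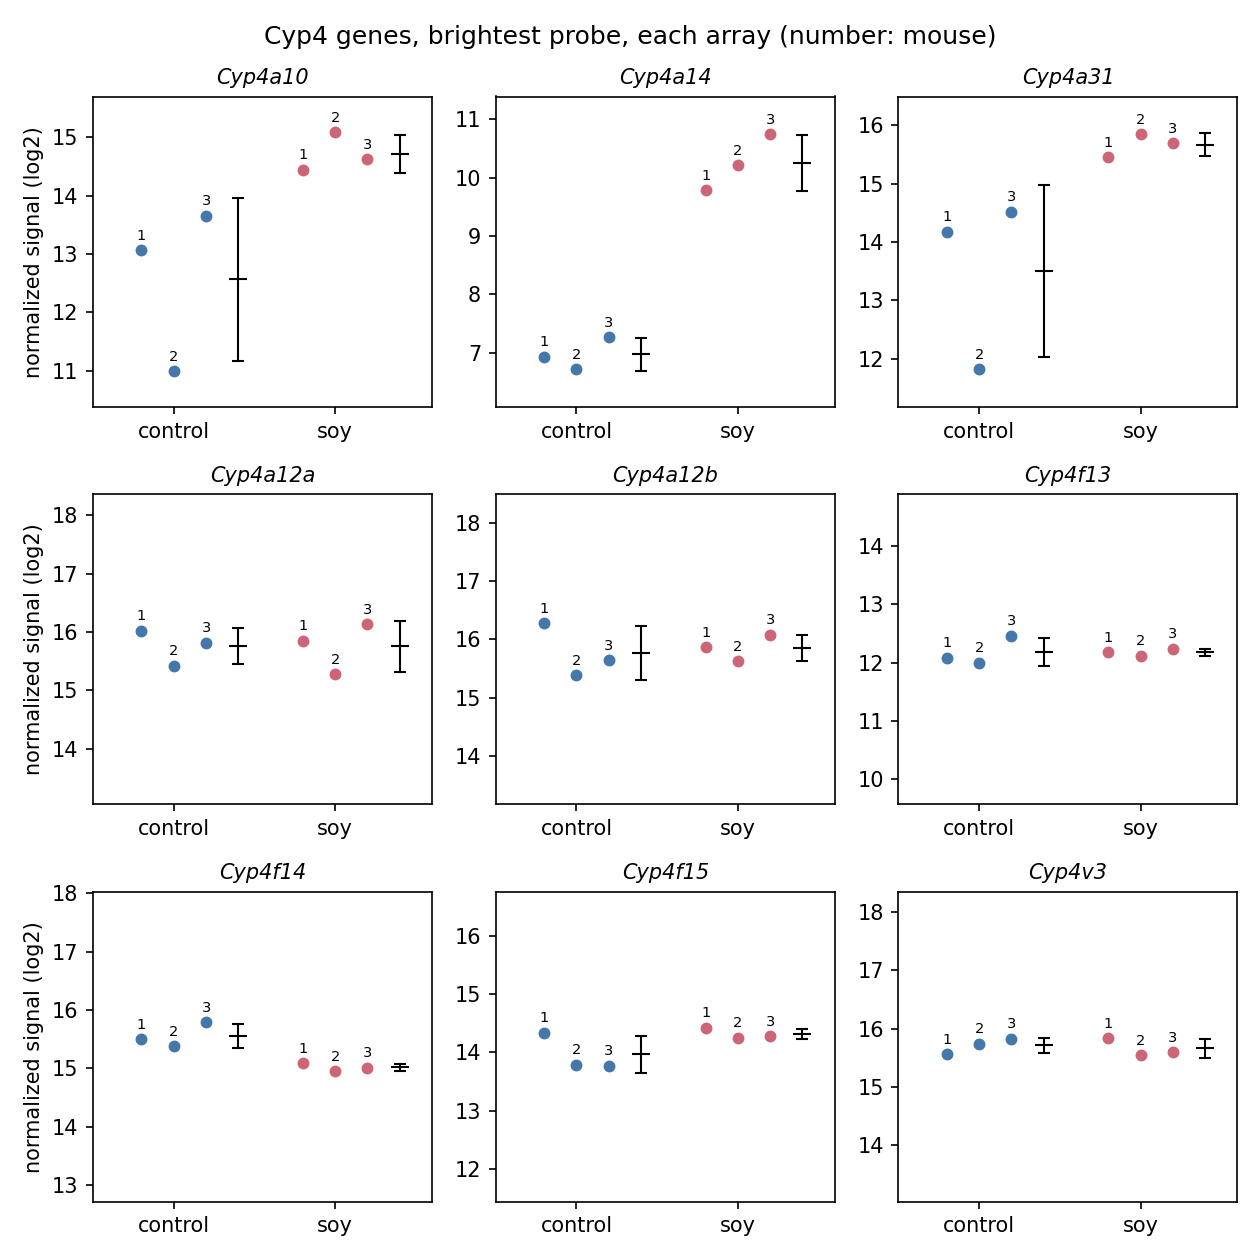
Normalized signal (log2, vertical axis) of the brightest probe of each of the 9 Cyp4 genes on each array. Blue points are the control and red points the soy mice, numbered by replicate, black marks give the mean with its SD, and the panels share 1 span but not 1 origin. Cyp4a14 lies between 6.72 and 7.27 in control and between 9.78 and 10.74 in soy, control 2 lies low for Cyp4a10 and Cyp4a31, and Cyp4f14 is lower in each soy mouse.

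Cyp4a10 (NM_010011) and Cyp4a31 (NM_201640 and NM_001252539), the close paralogues of Cyp4a14, were higher in each soy mouse than in each control mouse on all 5 of their probes (7.75% of all probes were), but none of the 5 passed. The brightest probe of Cyp4a10 gave 13.06, 10.99 and 13.65 in control and 14.45, 15.09 and 14.62 in soy. The control values were thus spread far wider than the soy values, with control 2 the lowest of the 6 mice. The means were 12.57 ± 1.40 and 14.72 ± 0.33 (SD, n = 3 each), and the change of 2.15 (SE 0.61, 95% interval 0.73 to 3.56), or 4.43-fold, had an adjusted p of 0.228 (limma). Its other probes gave changes of 1.41 and 1.96 (limma, adjusted p = 0.215 and 0.212).

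The brightest probe of Cyp4a31 gave 14.18, 11.82 and 14.52 in control and 15.46, 15.85 and 15.70 in soy. Again control 2 stood below the other controls, and the soy mice lay close together. The change was 2.16 (SE 0.63, 95% interval 0.70 to 3.62), or 4.47-fold, with an adjusted p of 0.243, and 2.03 on the second probe with an adjusted p of 0.190 (limma). Cyp4a10, Cyp4a31 and Cyp4a32 are near-identical genes. The probe sequences were not analysed here, so how far these probes separate the paralogues is uncertain.

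The size of both changes rested on control 2. On the 5 probes control 2 lay 1.32 to 2.36 below the lower of the other controls. Without that mouse the change was 1.36 for Cyp4a10 (limma, adjusted p = 0.161) and 1.32 for Cyp4a31 (limma, adjusted p = 0.0758), on their brightest probes. Within slide 1, which holds control 2, the changes were 2.42 and 2.46, and within slide 3 they were 0.97 and 1.17. For Cyp4a14 control 2 lay 0.21 below the next control, and without it the change was 3.15 (limma, adjusted p = 0.0396). A control 2 value at least 1 below both other controls was found for 37 of 22907 genes (0.162%). These held 2 of the 9 Cyp4 genes, Cyp4a10 and Cyp4a31, and 1 of 36 other PPARA target genes, Vnn1. The measure was set after the values of Cyp4a10 and Cyp4a31 were seen, so both meet it by choice. Their probes may also read the same transcripts. By the same measure the other arrays stood below their group for 18 to 51 genes.

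**Figure D2:**
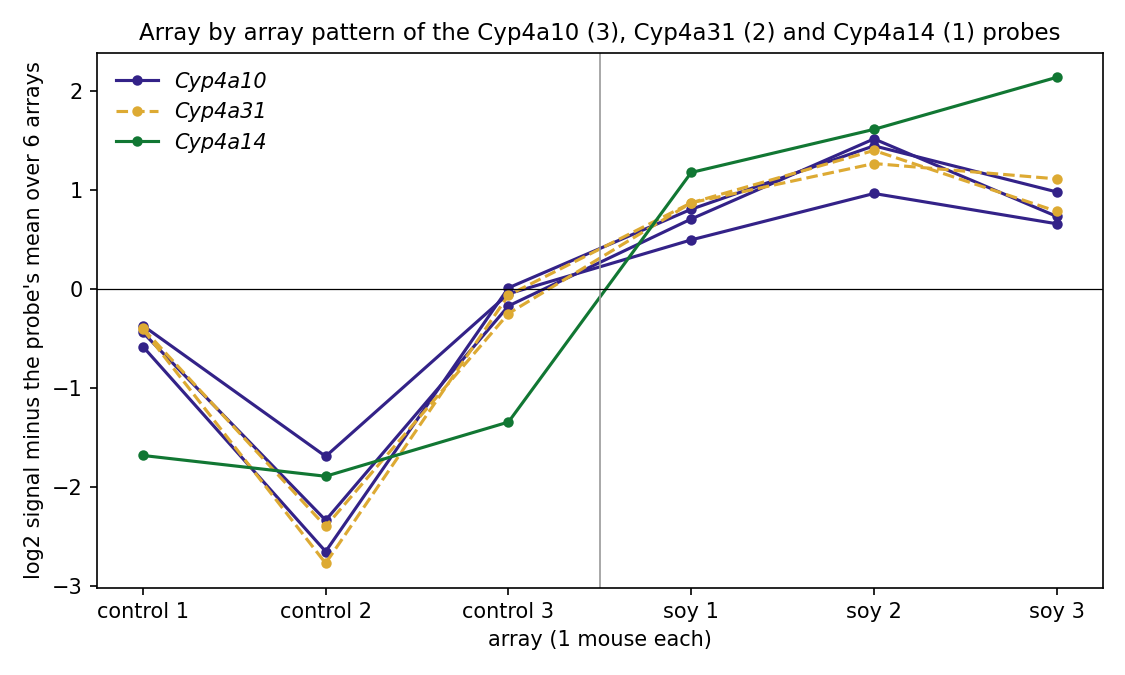
Log2 signal of 6 probes on each array, minus the mean of that probe over the 6 arrays (vertical axis), for Cyp4a10 (3 probes), Cyp4a31 (2 probes) and Cyp4a14 (1 probe). The lines join the values of 1 probe, and the order of the arrays within a group carries no meaning. The 5 probes of Cyp4a10 and Cyp4a31 share 1 pattern with its low point at control 2, where Cyp4a14 is 0.21 below the next control.

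Over the 6 arrays the brightest probes of Cyp4a10 and Cyp4a31 had a Pearson correlation of 0.996, and that of their deviations from the group means was 0.989. For Cyp4a14 and Cyp4a10 these values were 0.833 and 0.480. They are given as descriptions over 6 arrays that share slides and normalization, and the paralogues may share a probe's target. The change of Cyp4a14 exceeded that of Cyp4a10 by 1.13 (SE 0.73) and that of Cyp4a31 by 1.12 (SE 0.76). Leaving out 1 array moved these values, down to 0.73 and 0.76 without control 3 and up to 1.79 and 1.83 without control 2, and with Agilent's processed signal they were 2.42 and 2.38. Against the 6 other members the excess lay between 2.93 and 3.82. With 3 mice a group an exact two-sided permutation test cannot go below p = 0.1, so these 8 differences are given as sizes, and none could have passed.

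Cyp4a12a (NM_177406) and Cyp4a12b (NM_172306), the male-typical members, gave intervals around 0. Cyp4a12a gave 16.02, 15.42 and 15.82 in control and 15.86, 15.28 and 16.14 in soy. The groups covered nearly the same range, and the 95% interval of the change ran from -0.56 to 0.56 (limma, adjusted p = 1.00). Cyp4a12b gave 16.27, 15.39 and 15.64 in control and 15.86, 15.62 and 16.08 in soy, with a change of 0.09 (95% interval -0.45 to 0.62, limma, adjusted p = 0.918). Its soy values all fell inside the control range. These intervals leave room for changes of up to 0.56 for Cyp4a12a and 0.62 for Cyp4a12b. The pair is also near-identical in sequence, so its probes may read both genes.

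Genes of sex-biased liver expression were set beside them. Of 11 male-biased liver genes 0 passed, also 0 at an unadjusted p under 0.05 by the brightest probe (limma), and their median change was 0.06, with 6 higher (-0.13 without control 2, with 3 higher). The changes furthest from 0 there were 0.78 for Moxd1, a monooxygenase-like gene (-0.88 without control 2), -0.42 for Susd4, a complement regulator (-0.25 without soy 3), and -0.39 for Hsd3b5, a steroid-metabolising enzyme (-0.19 without control 2). Of 15 female-biased liver genes 0 passed (limma). At an unadjusted p under 0.05 by limma 2 were higher and 2 lower, beside 7.21% and 7.02% of all genes. By sign 9 were lower and 6 higher, with a median change of -0.04 (-0.11 without soy 3). These counts include 5 genes not well above background on any array, and 6 of the 15 were well above it on all 6. There the furthest were Nipal1 (-1.90, adjusted p = 0.188), a magnesium transporter family gene well above background on the 3 control arrays and 1 soy array, Cyp3a16 (1.28, adjusted p = 0.0840), and Cyp2b9 (-1.20, adjusted p = 0.584), both P450 enzymes, all by limma. Cyp2b9 was at -0.42 without control 1 and -2.05 without control 3. The signal summed over the female-biased list was 289457, 377136 and 440818 in control and 519432, 544645 and 586541 in soy, most of it from Cyp3a41a, whose change of 0.80 did not pass (limma, adjusted p = 0.171). Its part in the Cyp4a results was not tested.

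**Figure D3:**
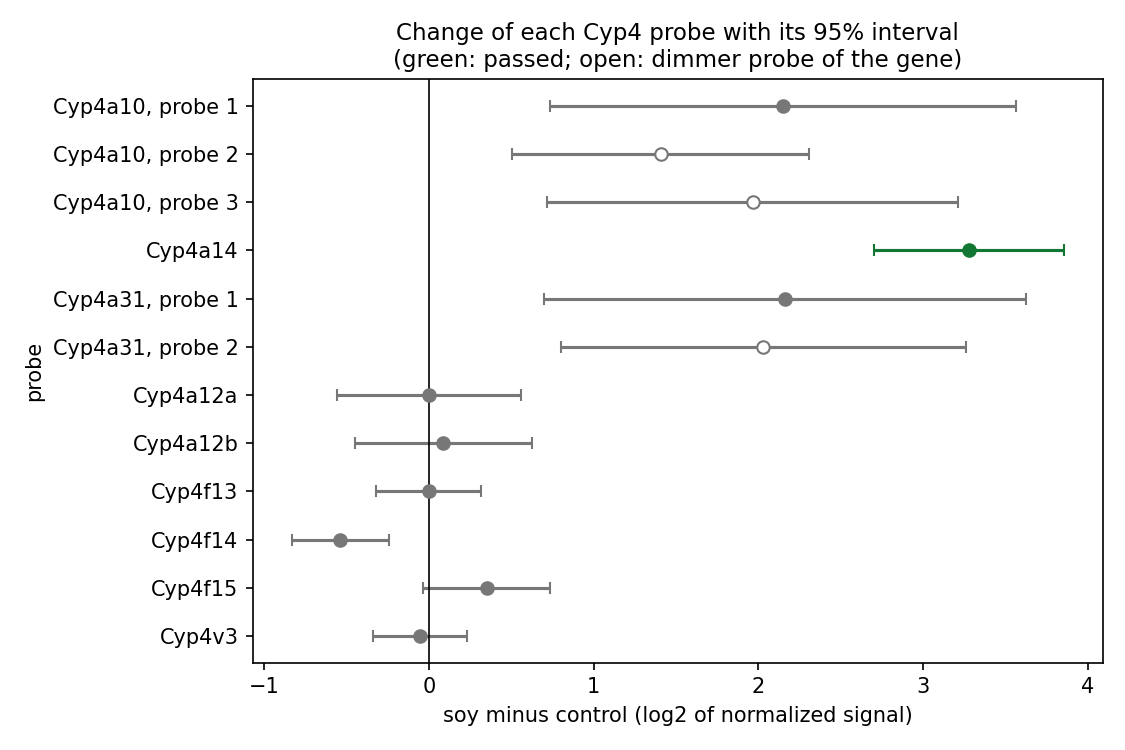
Change from control to soy (log2 of normalized signal, horizontal axis) of each of the 12 Cyp4 probes, as points with 95% intervals from limma. Green marks the probe that passed, and open points are the dimmer probes of a gene. The 6 probes of Cyp4a10, Cyp4a14 and Cyp4a31 lie between 1.41 and 3.28, and Cyp4f14 lies at -0.54.

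Among the Cyp4f genes, Cyp4f14 (NM_022434), a leukotriene B4 hydroxylase, was lower in soy. It gave 15.50, 15.38 and 15.79 in control and 15.08, 14.95 and 15.01 in soy. Each soy mouse was below each control mouse. The change of -0.54 (SE 0.13, 95% interval -0.83 to -0.24), or 0.689-fold, did not pass (limma, adjusted p = 0.154), and within slides 1 and 3 it was -0.36 and -0.77. With Agilent's processed signal the change of -0.53 had an adjusted p of 0.0245 (limma), but its fold stayed inside the limits. Cyp4f13 (NM_130882) gave 12.083, 12.003 and 12.459 in control and 12.183, 12.119 and 12.240 in soy, with overlap and a 95% interval of -0.32 to 0.32 (limma, adjusted p = 0.999). Cyp4f15 (NM_134127) gave 14.34, 13.79 and 13.77 in control and 14.42, 14.25 and 14.28 in soy. Control 1 reached the soy range, and the change of 0.35 (95% interval -0.03 to 0.74) did not pass (limma, adjusted p = 0.478). It was 0.54 without control 1 and 0.25 without control 3. Cyp4v3 (NM_133969), the counterpart of the human corneal dystrophy gene CYP4V2, gave 15.57, 15.74 and 15.83 in control and 15.84, 15.54 and 15.60 in soy, which overlapped (change -0.05, 95% interval -0.34 to 0.23, limma, adjusted p = 0.907).

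Cyp4f13, Cyp4f14 and Cyp4f15 lie on 1 chromosome, and their sequences just before the start are shown because Cyp4f14 and Cyp4f15 differed in the sign of their changes. Neither passed, and the change of Cyp4f13 was near 0 and took either sign when 1 array was left out. The 60-base stretches are from RefSeq, build GRCm38.p6, on the strand of each gene, at chr17:32947408-32947467 (minus), chr17:32917377-32917436 (minus) and chr17:32685551-32685610 (plus). Capitals mark ATTGG, the letters of a CCAAT box read on the other strand, which begin 76, 50 and 78 bases before the start:
Cyp4f13: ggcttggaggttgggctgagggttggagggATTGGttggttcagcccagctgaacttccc
Cyp4f14: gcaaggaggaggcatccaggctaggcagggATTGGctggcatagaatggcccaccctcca
Cyp4f15: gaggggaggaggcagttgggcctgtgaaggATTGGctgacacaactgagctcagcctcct

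Placed on these letters, Cyp4f14 and Cyp4f15 share 38 of 60 bases, Cyp4f13 and Cyp4f15 share 31, and Cyp4f13 and Cyp4f14 share 27. The CCAAT motif was chosen after the sequences were seen. Windows ran from 250 bases before to 50 after the start and were searched on both strands. The motif occurred in 7 of the 8 windows of the 5 set members with an entry. Of these 8 windows 4 belong to Cyp4f14, and some overlap. It also occurred in 37.4% of all 32851 windows, which is no fair comparison for a motif chosen in this way. The members with an entry were these 3 genes, Cyp4v3 and Cyp4a32. DR1, the direct repeat of AGGTCA with 1 base between that PPARA and RXR bind, occurred in 0 of the 8 windows, in 0 of 33 windows of 29 other PPARA target genes, and in 0.0396% of all windows. A single AGGTCA, which the repeat contains, occurred in 0 of the 8 windows, 9 of the 33 and 16.3% of all, and TATAAA in 1 of 8, 3 of 33 and 13.6%. A match is a description of letters, and a window without one holds nothing on the receptor.

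The other genes of the PPARA pathway give the setting for the Cyp4a genes. Their list was chosen with earlier results of these data known, so its counts are descriptions and not independent support. Of 36 further PPARA target genes, all on the array, 7 passed as higher in soy and 0 as lower, where 0.341% of all genes passed as higher. By the brightest probe 31 of the 36 were higher, beside 11185 of 22907 genes in all, 23 were higher without overlap, beside 9.68% of all genes, and the median change was 0.50. The 5 of the 7 with the furthest change were Pdk4 (1.87, adjusted p = 0.0149), the kinase that switches off pyruvate dehydrogenase, Crat (1.84, adjusted p = 0.0387), which makes acylcarnitines, and the acyl-CoA thioesterases Acot1 (1.79, adjusted p = 0.0313), Acot2 (1.45, adjusted p = 0.0130) and Acot4 (1.20, adjusted p = 0.0457), all by limma. The others were the peroxisomal thiolases Acaa1b (1.13) and Acaa1a, the latter on its dimmer probe (0.84, limma, adjusted p = 0.0469) while its brightest gave 0.34. Changes of similar or larger size that did not pass were those of Vnn1, a pantetheinase (2.41, adjusted p = 0.162), Acot3, a further thioesterase (2.38, adjusted p = 0.0760), Fgf21, a fasting hormone (1.49, adjusted p = 0.241), and Fitm1, a lipid droplet protein (1.45, adjusted p = 0.0531), all by limma, the last pair named after their values were seen. The probe of Fgf21 was well above background on 1 control array and the 3 soy arrays, and those of the 35 others on all 6.

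Vnn1 gave 8.67, 7.11 and 9.69 in control and 11.31, 10.45 and 10.94 in soy, where control 2 was also the lowest of the 6 mice. The 5 target genes that were not higher in soy, named after their values were seen, were Angptl4 (-0.64), a lipoprotein lipase inhibitor, Cpt1a (-0.51), which brings fatty acids into mitochondria, Decr2 (-0.09), Fabp1 (-0.05) and Acadl (-0.01), none of which passed. The count of 7 depended on the arrays. It was 7 without control 3, 5 without control 2, 2 without control 1, and 0 without soy 1, soy 2 or soy 3 (limma). At an unadjusted p under 0.05 by the brightest probe, 24 of the 36 genes were higher in soy and 2 lower. Without 1 array these counts were 19 to 23 higher and 2 lower each time, with the fewest, 19, without control 2, beside 5.53% of all genes higher in that fit. Without soy 1, soy 2 or soy 3 they were 21, 22 and 21 higher, beside 7.49%, 6.69% and 5.90% of all genes. With the slide as a block 0 passed (limma), and 22 were higher and 1 lower at an unadjusted p under 0.05, beside 7.21% of all genes higher and 5.75% lower. Within slide 1 the median change of the 36 genes was 0.49, with 33 higher, and within slide 3 it was 0.42, with 31 higher. The median was thus above 0 within both slides that had both groups.

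**Figure D4:**
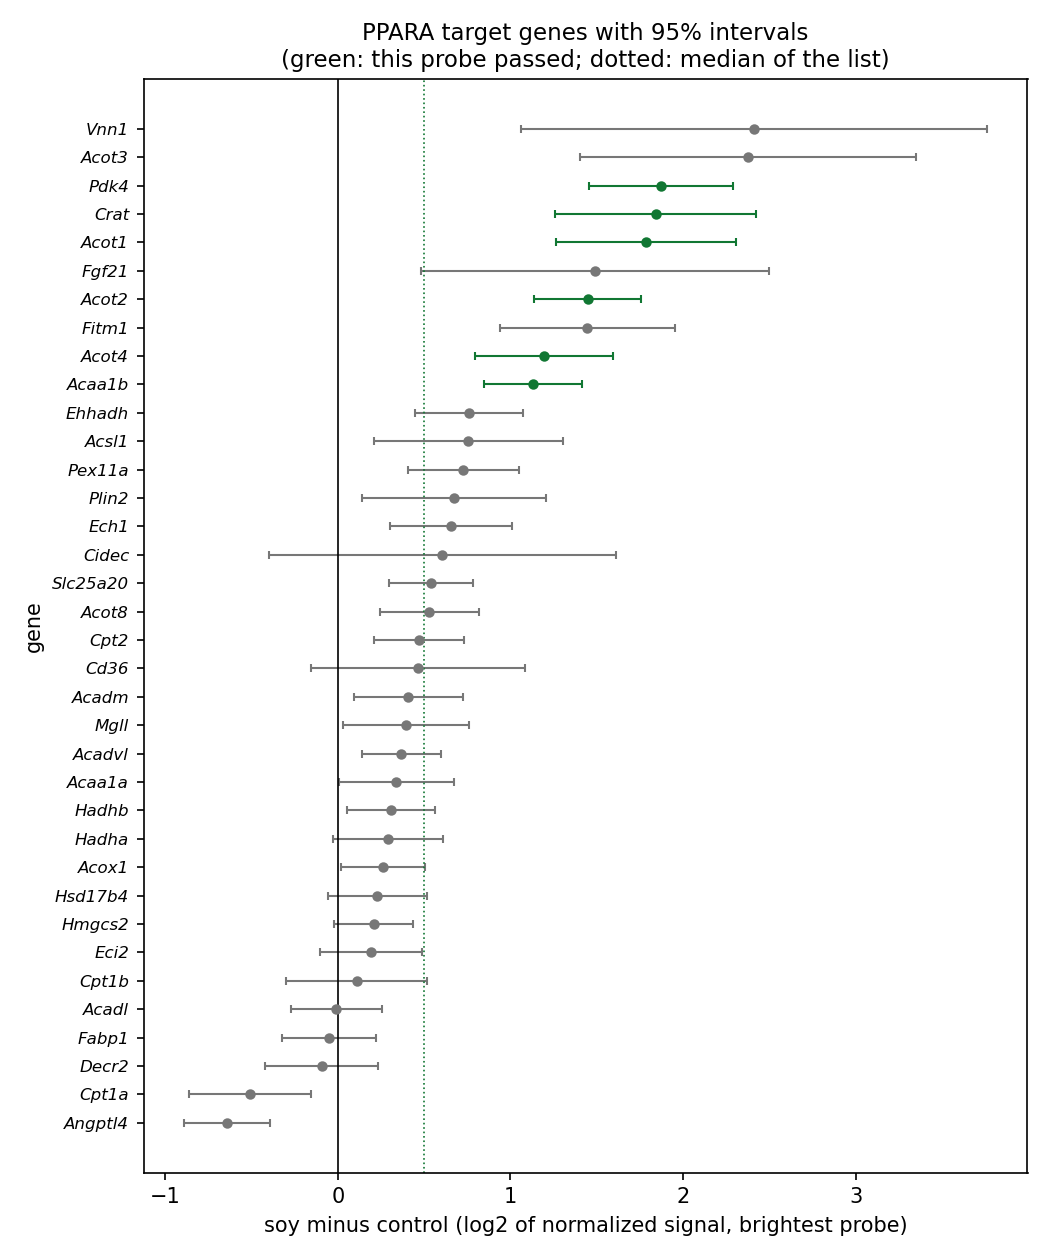
Change from control to soy (log2 of normalized signal, horizontal axis) of 36 PPARA target genes other than the Cyp4a genes, by the brightest probe of each, with 95% intervals from limma. Green marks probes that passed, and the dotted line is the median of the list at 0.50. Crat, Pdk4 and the thioesterases Acot1, Acot2, Acot3 and Acot4 are near the top, and Angptl4 and Cpt1a lie below 0. The thioesterase Acot8 lies at 0.53, beside the median.

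Ppara itself gave a change of 0.07 (limma, adjusted p = 0.929), which ran from -0.12 without control 3 to 0.21 without control 1. Of 13 genes for the receptor and its partners, 2 passed, both higher in soy, where 0.341% of all genes did. Rxrg, an RXR isoform with which PPARA can pair, gave 7.85, 8.18 and 8.34 in control and 9.34, 9.87 and 9.50 in soy, and it rose by 1.44 (limma, adjusted p = 0.0294). Nr1i3, the xenobiotic receptor CAR, rose by 0.87 on its dimmer probe (limma, adjusted p = 0.0427) and gave 0.85 on the brighter (adjusted p = 0.0880). Of the fits without each array in turn, Rxrg and Nr1i3 passed in that without control 3, and their adjusted p ran over all 6 from 0.0428 to 0.105 for Rxrg and from 0.0364 to 0.161 for Nr1i3 (limma). Neither passed with the slide as a block (limma, adjusted p = 0.111 and 0.170) or with an offset of 16 (0.0545 and 0.0969), and with the replicate number as a block Rxrg passed (0.0487) and Nr1i3 did not (0.102). Pparg, the adipogenic receptor, gave 1.25 (adjusted p = 0.0810), and the main liver isoform Rxra gave -0.04. Among the rest, Ppargc1b gave -0.59 (-0.23 without control 1, -1.09 without control 3), Rxrb -0.23, Nr1i2 0.19 (0.05 without soy 1, 0.41 without control 2), Med1 -0.17, Ncoa1 0.13, Ncor1 -0.02, Ppargc1a 0.02 (-0.51 without control 3) and Ppard -0.01, as changes that did not pass.

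P450 enzymes of this family need electrons from Por, the P450 reductase, or from cytochrome b5. Of the 4 electron donor genes 0 passed (limma). At an unadjusted p under 0.05 by limma 1 was higher and 1 lower, beside 7.21% and 7.02% of all genes. Por gave 16.60, 16.58 and 16.76 in control and 16.56, 15.72 and 15.61 in soy, a change of -0.68 (adjusted p = 0.331) in which soy 1 lay next to the controls. Cyb5b gave 0.52, Cyb5a 0.22 and Cyb5r3 -0.12. Of 8 genes for the later steps, which oxidize omega-hydroxy fatty acids and carry the products into peroxisomes, 0 passed (limma), with 4 higher and 0 lower at an unadjusted p under 0.05, beside 7.21% and 7.02% of all genes. Their median change was 0.29, and the furthest from 0 were Aldh3a2, the fatty aldehyde dehydrogenase (1.27, adjusted p = 0.0531), Aldh1a1 (0.71, adjusted p = 0.0961) and Adh1 (0.50, adjusted p = 0.150). Of the 8 genes 4 were higher in soy without overlap between the groups, these 3 among them, beside 9.68% of all genes.

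The other 10 Cyp4 genes of the array did not pass (0 of 10, limma), and their median change was 0.00. At an unadjusted p under 0.05 by limma 0 were higher and 1 lower, beside 7.21% and 7.02% of all genes. The furthest changes were those of Cyp4f40 (-0.51, adjusted p = 0.238), Cyp4f16 (0.23) and Cyp4b1 (-0.14). Without control 1 the latter pair gave 0.075 and 0.0027, and without control 2 Cyp4f16 gave 0.37. Cyp4f37 and Cyp4x1 were well above background on no array, and Cyp4a29 on no soy array.

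The 5 genes whose array pattern was most like that of Cyp4a14 were Ppfibp2 (r = 0.996), Gstm6 (r = 0.989), Net1 (r = 0.988), Snx24 (r = 0.988) and Pcp4l1 (r = 0.986). These are Pearson correlations over 6 arrays in 2 groups among 2055 probes that ranged over at least 1 log2 unit, so they largely reflect the difference between the groups. Their own changes lay between 0.94 for Snx24 and 2.68 for Pcp4l1. For Cyp4a12a, which has no such difference, the most similar were Cdkn1a (r = 0.910), Mapkapk3 (r = 0.858), B3galnt1 (r = 0.840), Dyrk3 (r = 0.831) and Efemp1 (r = 0.823). None of the latter 5 passed, and their changes lay between -0.23 and 0.11.

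The tissue was checked against marker genes. Of 10 hepatocyte markers 9 were matched on the array, and all 9 were well above background on the 6 arrays. Their summed signal was 2379800, 2399340 and 2308520 in control and 2308330, 2184040 and 2047330 in soy, with Serpina1a the brightest. The groups of sums lay side by side without overlap, and 0 of the 9 genes passed (limma). At an unadjusted p under 0.05 by limma 1 was higher and 2 were lower, beside 7.21% and 7.02% of all genes. The furthest changes were those of the urea cycle enzymes Ass1 (-0.55) and Cps1 (-0.47) and of Apob (0.46), the protein of very low density lipoprotein. The kidney is the other main site of Cyp4a expression, and 8 of its markers were measured. Slc34a1, Lrp2, Slc22a6 and Cdh16 were well above background on all 6 arrays, and Umod, Kap and Slc12a1 on none. Their summed signal was 1402, 1319 and 1381 in control and 1315, 1353 and 1441 in soy, with overlap and with Cdh16 the brightest. Of the 8 kidney markers 0 passed (limma), also 0 at an unadjusted p under 0.05, and the furthest changes were 0.51 for Lrp2, -0.18 for Slc34a1 and -0.18 for Slc22a6. Without control 1 Lrp2 gave 0.32 and Slc22a6 -0.079.

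Lists for fasting and for the clock were set beside the Cyp4a genes. Of 14 genes of the fasting and glucocorticoid response, all 14 were lower in soy, with a median change of -0.77, and Igfbp1, an insulin-repressed binding protein of growth factors, passed (-2.50, limma, adjusted p = 0.0242). Without each array in turn its adjusted p ran from 0.0329 to 0.108 (limma), and it passed without control 3 and without soy 3. It did not pass with the slide as a block (limma, adjusted p = 0.161) or with the replicate number as a block (0.0854). The count of 14 lower genes was 11 without control 1 and 12 without soy 1 or soy 2. At an unadjusted p under 0.05 by the brightest probe 8 of the 14 were lower and 0 higher (limma), beside 7.02% and 7.21% of all genes. Fkbp5, a glucocorticoid receptor chaperone, gave -1.18 and Sds, a serine-degrading enzyme, gave -1.13. The summed signal of the 14 genes was 551727, 473694 and 373930 in control and 268806, 228181 and 256464 in soy. Of 9 clock genes with an evening peak, 9 were lower (median -0.65) and 0 passed, and of 5 with a morning peak 5 were higher (median 0.64) and 0 passed (limma), with 5 genes lower and 3 higher at an unadjusted p under 0.05, beside 7.02% and 7.21% of all genes. The furthest of the former were Dbp (-2.59), Ciart (-2.39) and Nr1d1 (-1.58), and of the latter Arntl (1.79), Clock (0.76) and Cry1 (0.64), each a regulator of the clock loop or its output. Of the morning genes 4 were well above background on all 6 arrays and 1 on none, and of the evening genes 7 were so on all 6. Ciart was well above background on 2 of the 3 soy arrays, so the size of its change is not exact, and Bhlhe41 on no soy array. Soy 3 was the lowest array for Dbp, at 10.77 against 14.28 and 13.87 in the other soy mice, and without it the changes were -1.49 for Dbp and 0.42 for Cry1. The morning median was also 0.42 without soy 3. Of the evening genes 8 were lower without control 2, soy 2 or soy 3 and with the slide as a block, with Hlf above 0 each time. The summed signal of the evening list was 114563, 118483 and 67069 in control and 63984, 47216 and 21299 in soy, without overlap, and that of the morning list was 6021, 5758 and 7721 in control and 6957, 8071 and 14833 in soy, with overlap. The part of these lists in the Cyp4a results was not tested, and the hour of sampling is not given in the sources used here.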

How the data were processed

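Liver RNA of 6 male mice was measured with 1 single-colour Agilent array per mouse. The authors deposited Feature Extraction 11.5.1.1 output, with unscaled median intensities for spots and for local background, and a processed signal with the background already subtracted. They also deposited a log2 table of the same arrays with medians of 7.33 to 7.34, which differed by at most 0.0705 from the values computed here.

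Normexp with an offset of 50 was applied to the median intensities, control spots were dropped, and quantile normalization preceded the log2 transform. Outlier spots were left out and the spots of each probe averaged. All 56605 probes were fitted with limma 3.58.1 in R 4.3.3, with Benjamini-Hochberg adjustment over all of them, and the fit was tested on simulated data. Tables and plots were made with Python 3.11.15, pandas 2.3.3, scipy 1.17.1 and matplotlib 3.10.9. RefSeq accessions gave a symbol for 32989 probes (58.3%). The arrays were annotated on another build than the gene table (GRCm38.p6), so positions are given for RefSeq promoter sequences alone.

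The Cyp4 members and the gene lists were chosen with earlier results of these data known. A gene was described by its brightest probe. Of each list the genes that passed (at most the 5 with the largest change) and the 3 with the largest change were named, besides all receptor partners and electron donors. The closing section gives the effect of other background corrections, signals, normalizations, filters, blocks, the deposited log2 values and leaving out each array.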

Additional observations from a re-analysis of the deposited data

How the results depend on the processing

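Cyp4a14 passed in each alternative run, with changes of 3.13 to 4.60 (limma, adjusted p 0.00177 to 0.0263) and of 3.03 to 3.51 without each array in turn (limma, adjusted p 0.0128 to 0.0430), and no other member passed in any. Without each array in turn, its excess over Cyp4a10 was 0.73 to 1.79 and over Cyp4a31 0.76 to 1.83. These became 1.54 and 1.53 with an offset of 16, and 2.42 and 2.38 with the processed signal. The count of 198 probes became 77 with an offset of 16, 299 with a 75th-percentile shift, 497 among probes well above background, 13138 with the processed signal, 25 with the slide as a block, and 25 to 203 without each array in turn. The median over all probes moved to 0.13 with the shift and with the processed signal, from -0.01. For the PPARA targets the 7 genes became 3 with an offset of 16, 12 among probes well above background and 13 with the processed signal (both with Angptl4 as the 1 lower gene), 0 with the slide as a block (limma), and 0 to 7 without each array in turn. Changes near 0 took the other sign. With the slide as a block that was so for Cyp4a12a (0.21) and Cyp4v3 (0.0079). Without each array in turn the changes ran from -0.19 to 0.24 for Cyp4a12a, -0.10 to 0.34 for Cyp4a12b, -0.090 to 0.14 for Cyp4f13 and -0.14 to 0.0075 for Cyp4v3. The cause was not tested. With the replicate number as a block, 78 probes and 3 PPARA targets passed, and Cyp4a14 kept its change of 3.28 (limma, adjusted p = 0.00831). Same-numbered mice had deviations that correlated at 0.10, -0.05 and 0.10. Of the soy mice, the same-numbered one was most like control 1 and control 3, and soy 1 was most like control 2, so not every pair was above 0.1 and the numbers were not taken to pair samples. Normexp on mean signals could not be run, since the files used here hold median signals. Signals near background limit the size of the Cyp4a14 fold.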

Other observations

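The genes for which control 2 lay at least 1 log2 unit below both other controls were looked at as a group after the Cyp4a10 and Cyp4a31 values were seen. They numbered 37, and 6 of them had a gap wider than that of Cyp4a31, namely the 5 given here and Ugt1a10. B4galnt1, a ganglioside synthase, gave 12.17, 6.69 and 11.88 in control and 11.48, 11.68 and 11.63 in soy. Moxd1 gave 12.31, 6.70 and 11.03 in control and 11.23, 11.03 and 10.11 in soy. Ifi202b, an interferon-inducible gene, gave 9.83, 6.13 and 9.35 in control and 8.96, 9.66 and 10.37 in soy. For these 3 genes the probe was well above background on 2 of the 3 control arrays. Dio1, the thyroid hormone deiodinase of liver, gave 12.11, 8.64 and 12.24 in control and 12.73, 12.31 and 12.46 in soy, and Alas2, the red cell enzyme of haem synthesis, gave 13.96, 11.43 and 13.94 in control and 13.71, 13.58 and 13.29 in soy. None of these 5 genes passed between the groups. Without control 2 the changes of Moxd1 and Alas2 turned from 0.78 to -0.88 and from 0.42 to -0.42. The metallothioneins Mt1 and Mt2 were among the 37, with 17.62, 15.99 and 17.60 in control for Mt1 and 12.39, 12.90 and 14.02 in soy, where Mt1 fell by 3.97 (limma, adjusted p = 0.0369). Without each array in turn Mt1 passed in the fit without control 2, with adjusted p of 0.0398 to 0.142 (limma). It did not pass with the slide as a block (0.122), with the replicate number as a block (0.0524), with an offset of 16 (0.0618) or with a trended and robust fit (0.105), all by limma.

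Markers of other cell types gave no gene that passed in limma. Of 7 Kupffer cell markers 6 were higher in soy, with a median change of 0.23, and their summed signal of 36125, 50943 and 58799 in control and 45872, 55228 and 67639 in soy overlapped. Without control 1 and without soy 3, 4 of the 7 were higher, with medians of 0.11 and 0.15, and the median was 0.37 without control 3. The furthest changes there were Marco (-0.73, but -0.20 without control 3), Cd5l (0.45, but 0.20 without control 1) and Vsig4 (0.44, but 0.27 without control 1). Of 6 pancreas markers 6 were lower, with a median of -0.42, and Cela2a gave the furthest change at -1.21 (limma, adjusted p = 0.0724). The summed pancreas signal was 8152, 8400 and 7311 in control and 6689, 6051 and 5558 in soy. Prss2, Cpa1 and Pnlip were well above background on no soy array, so that no single change is given for them. The count of 6 lower markers, the median of -0.42 and the sums include these genes, so the size of that median is uncertain. Of 5 blood markers 5 were higher, with a median of 0.42, and their sums of 171286, 127382 and 184651 in control and 141038, 291110 and 167677 in soy overlapped, with S100a9 (0.62), S100a8 (0.58) and Alas2 (0.42) furthest. Without control 2, 4 of the 5 were higher, with a median of 0.13, and without soy 2 it was 3 of 5, with a median of 0.39. Without control 1 S100a9 and S100a8 were at 0.33 and 0.29. The median changes of the endothelial, stellate, bile duct and fat cell lists lay between -0.10 and -0.01, with the furthest changes for Lyve1 (-0.67), Kdr (0.30) and Clec4g (0.20) in the first, Col1a1 (-0.997), Reln (-0.23) and Dcn (-0.08) in the next, Sox9 (-0.16) among bile duct genes and Cfd (0.41) and Lep (-0.21) among fat cell genes. Epcam was well above background on no array, Krt7 and Retn on no soy array and Cfd on 1 array of each group. The medians include such genes, since 2 of the 4 bile duct and 1 of the 5 fat cell genes were well above background on all 6 arrays. Without each array in turn the medians ran from -0.15 to -0.02 for the endothelial list, with the value nearest 0 without control 1, and from -0.20 without soy 1 to -0.06 without soy 2 for the stellate list. They ran from -0.08 without soy 1 to 0.05 without control 2 for the bile duct list, which was also above 0 without soy 2 or soy 3, and from -0.13 without soy 2 to -0.06 without control 3 for the fat cell list. Several of these rested on 1 array. Lyve1 read 11.16 in control 1 against 9.23 and 9.32 in the other controls, and its change was -0.04 without that mouse. Cfd read 8.20 in soy 1 against 6.33 and 6.34 in the other soy mice, and without soy 1 its change turned below 0. Most of its signals were not well above background, so neither size of its change is exact. Col1a1 was at -0.61 without control 1 and Sox9 at -0.05 without soy 2. At an unadjusted p under 0.05 by the brightest probe there were 3 pancreas and 1 stellate cell markers, all lower in soy, beside 7.02% of all genes, and 0 of the other lists named here. Of these pancreas markers, Prss2 and Cpa1 were well above background on no soy array, and Cela2a was so on all 6 arrays.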
